A study of Bos indicus with 9 samples.

Results

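Ceramide handling in the bovine corpus luteum was examined through 10 genes: CERT1, SPTLC1, SPTLC2, CERS2, SGMS1, SMPD1, ASAH1, UGCG, SGPL1 and SPHK1. The genes were selected from a list of sphingolipid enzymes built around CERT1, which stood out in treated against control animals in an earlier reading of these arrays. CERT1's own differences are therefore given as a description with no test. Of the 10 genes, 9 had a signal, from 1 probe set each, among 9148 named genes and 23969 probe sets tested. SGMS1 was not analysed here, because the array's probe table used for names does not pair it with a probe set. CERT1 signal was 1.69-fold higher in stimulated and 1.34-fold higher in superovulated than in control corpora lutea, values that were not tested. The 8 remaining genes were tested, and none of them passed in any comparison.

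The arrays came from 9 crossbred Nelore cows (Bos indicus) aged 2 to 5 years, 3 in each group, with 1 array per cow. All cows were synchronised with progesterone devices and estradiol benzoate, and their corpora lutea were taken at slaughter on day 6 after ovulation. Control cows received no equine chorionic gonadotropin (eCG), a hormone of the mare's placenta that stimulates the follicles of cattle. Stimulated cows were given eCG at 400 IU, on day 8 of the synchronisation, and superovulated cows at 2000 IU, on day 4. Dose and day thus changed together, and their parts in a difference cannot be told apart. How many corpora lutea each superovulated cow carried, and which of them was sampled, is not given in the sources used here.

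Ceramide is the hub of sphingolipid metabolism. It is built on the endoplasmic reticulum from serine and palmitoyl-CoA, and it is then carried to the Golgi, where it becomes sphingomyelin, or it is turned into glucosylceramide. Ceramide is also released from sphingomyelin in lysosomes and can be split to sphingosine, which is phosphorylated to the signalling lipid sphingosine 1-phosphate (S1P). In the ovary, ceramide is known as a lipid linked to cell death and S1P as a lipid that favours survival and vessel growth.

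Signals are log2 values, and the tests compare each signal between groups for the same probe set only. Ranks among probe sets and differences between genes within an animal are given as descriptions. A gene passed when its adjusted p, from limma's moderated test with Benjamini-Hochberg adjustment over all 23969 probe sets, was under 0.05. Correlations of signal between arrays ran from 0.9873 to 0.9938 within groups and from 0.9856 to 0.9934 between groups. Markers of steroidogenic cells differed in brightness. STAR, the carrier of cholesterol into mitochondria, had a mean signal of 14.74, above 99.9% of probe sets, and CYP11A1, which makes pregnenolone, had 14.13, above 99.7%. In the same marker list LHCGR had 6.305, above 64.5%, and CYP19A1 had 4.80, above 54.8%.

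CERT1 encodes the ceramide transfer protein, the cytosolic shuttle that delivers ceramide for sphingomyelin synthesis. Its probe set, Bt.7214.1.S1_a_at, had signals of 5.71, 5.71 and 5.80 in the control cows, 6.52, 6.44 and 6.53 in the stimulated cows and 6.08, 6.10 and 6.30 in the superovulated cows. The 3 groups did not overlap in any pair: every stimulated cow was above every superovulated cow, and every superovulated cow above every control. Group means were 5.74 ± 0.05, 6.50 ± 0.05 and 6.16 ± 0.12 (SD, n = 3 each).

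The log2 difference of CERT1 was 0.76 (SE 0.08) for stimulated against control and 0.42 (SE 0.08) for superovulated against control. Superovulated animals were lower than stimulated animals by a log2 difference of -0.33 (SE 0.08). These 3 values come from the same 9 animals, and the comparisons with control share the same control cows. The pooled spread of CERT1 within groups was an SD of 0.0829, and 2.33% of the 1458 probe sets within 0.5 log2 units of its mean signal had a smaller one. This narrow spread, like the SEs, belongs to the values on which CERT1 was chosen. With an intensity trend and robust prior in limma, the SE of each difference from control was 0.13. Groups without overlap were found for 11.5% of all probe sets in stimulated against control, 10.9% in superovulated against control and 13.5% in superovulated against stimulated animals. Leaving out any single array left the log2 difference from control between 0.74 and 0.79 in stimulated and between 0.35 and 0.46 in superovulated animals. These ranges also belong to the values on which CERT1 was chosen, so they are a description and no support for the difference.

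**Figure D1:**
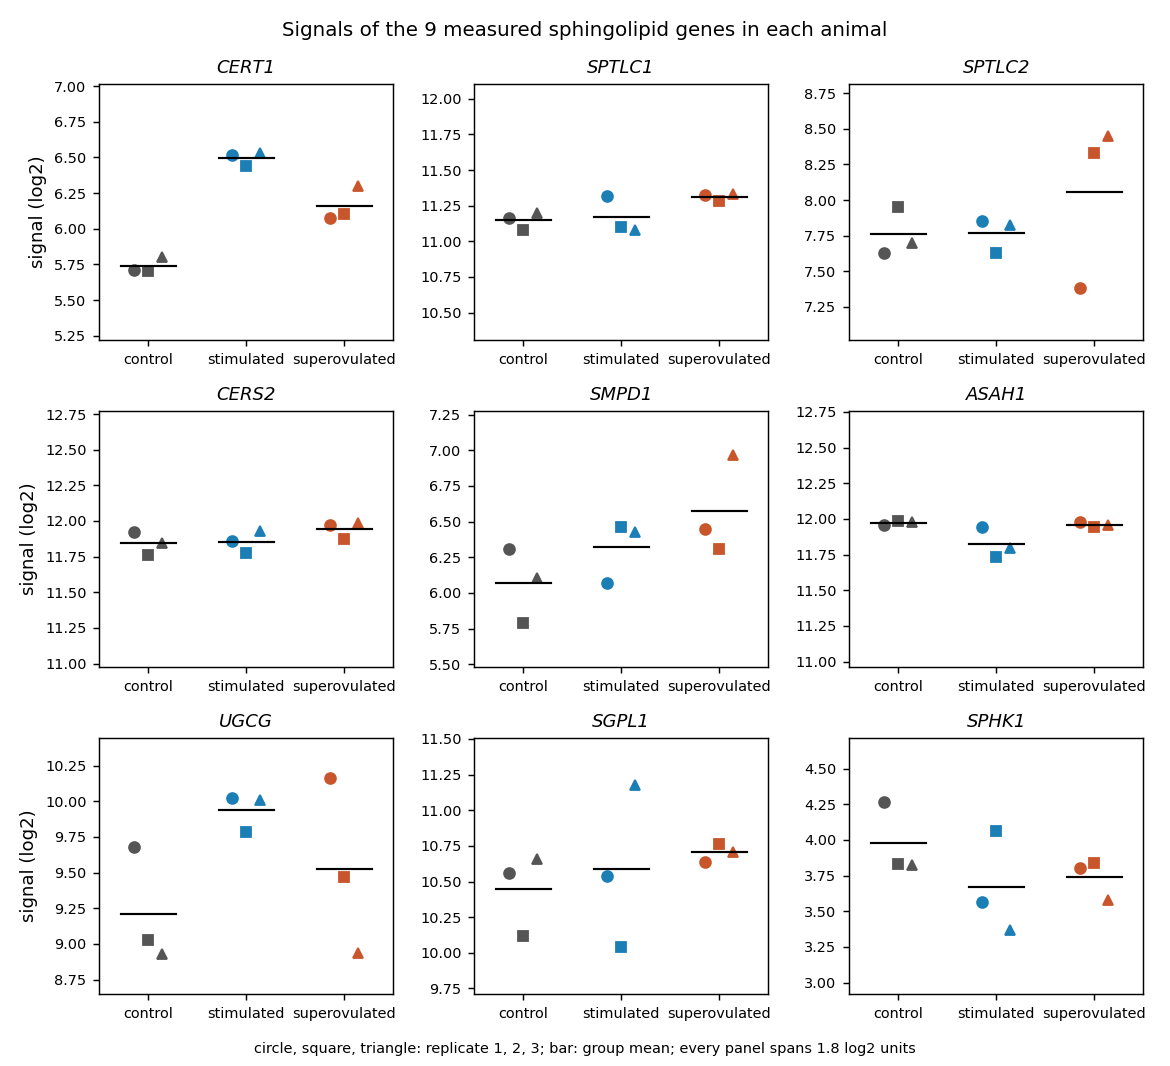
Signal on the log2 scale of the 9 measured genes in each of the 9 cows, by group; circles, squares and triangles are replicates 1, 2 and 3, bars are group means, and every panel spans the same number of log2 units. CERT1 forms 3 separate levels, at 5.74 in control, 6.16 in superovulated and 6.50 in stimulated cows, whereas SPTLC2 and UGCG spread over more than 1 log2 unit within the superovulated group.

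Markers of myeloid, T and NK, and endothelial cells each had group means in the order of CERT1, with control lowest and stimulated highest. For macrophages and other myeloid cells, the mean signal over 13 genes lay between 4.71 and 5.85 in control, 6.03 and 7.08 in superovulated and 6.32 and 7.48 in stimulated cows. Of the 13 genes, 13 were above control in stimulated and 12 in superovulated animals, where 49.2% and 53.3% of all genes were. The mean log2 differences were 1.51 and 1.01. Within groups the order differed: the highest myeloid mean in each group was that of replicate 2, while the highest CERT1 signal in each group was that of replicate 3. Steroidogenic markers, 8 genes, lay between 11.79 and 11.97 in control, 11.89 and 11.97 in stimulated and 11.73 and 11.82 in superovulated cows. Of these 8, 4 were above control in stimulated and 1 in superovulated animals, with mean log2 differences of 0.06 and -0.07. Endothelial markers, 9 genes, ranged from 7.38 to 8.31 in control, from 7.83 to 8.29 in stimulated and from 7.54 to 7.98 in superovulated cows, with group means of 7.73, 8.03 and 7.81. T and NK cell markers, 9 genes, lay between 2.81 and 3.26 in control, 3.24 and 4.13 in stimulated and 2.92 and 3.32 in superovulated cows, with group means of 3.05, 3.69 and 3.18. In stimulated animals 9 of 9 endothelial genes and 9 of 9 T and NK cell genes were above control, where 49.2% of all genes were. The mean log2 differences were 0.30 and 0.64. In superovulated animals 6 of 9 and 7 of 9 were above control, where 53.3% of all genes were, with mean log2 differences of 0.08 and 0.13. The T and NK cell genes were dim, with mean signals from 2.35 for CD5 to 4.58 for GNLY. The part of these cell types in the CERT1 difference was not tested, and in whole corpora lutea more cells of a type and more RNA per cell cannot be told apart.

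**Figure D2:**
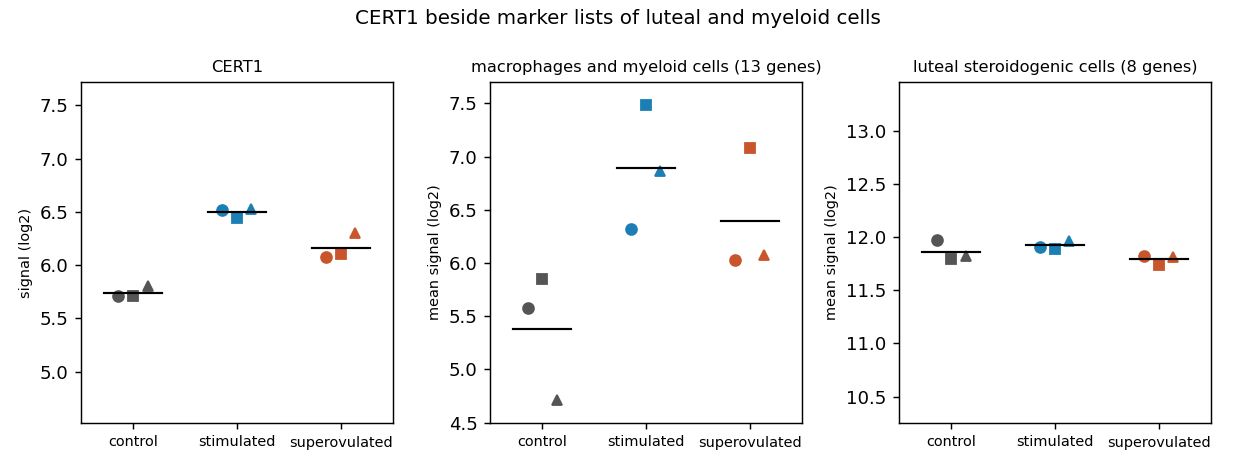
CERT1 signal, and the mean signal of 13 myeloid and 8 steroidogenic marker genes, on the log2 scale in each cow; circles, squares and triangles are replicates 1, 2 and 3 and bars are group means. The myeloid group mean is 5.38 in control, 6.40 in superovulated and 6.89 in stimulated cows, the order seen for CERT1, while the steroidogenic means lie between 11.79 and 11.92.

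RNA integrity was read from array controls, as the signal of a transcript's 3' end minus that of its 5' end. For elongation factor 1 alpha it lay between -1.90 and -1.77 in control, -1.77 and -1.60 in stimulated and -1.83 and -1.60 in superovulated cows. For GAPDH it lay between -0.08 and -0.03 in control and between -0.02 and -0.0038 in stimulated cows, without overlap, and between -0.04 and 0.02 in superovulated cows. For actin the groups overlapped, with control between -0.53 and -0.22 and stimulated between -0.46 and -0.28. The part of RNA integrity in the CERT1 difference was not tested.

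The first step of ceramide synthesis is catalysed by serine palmitoyltransferase, whose core subunits are encoded by SPTLC1 and SPTLC2. SPTLC1 (Bt.6289.1.S1_at) had signals of 11.16, 11.08 and 11.20 in control, 11.32, 11.10 and 11.08 in stimulated and 11.32, 11.28 and 11.33 in superovulated cows. All 3 superovulated cows were above all 3 controls, within a span of 0.05 log2 units among themselves. The log2 difference was 0.16 (95% interval -0.02 to 0.34, limma adjusted p = 0.810) for superovulated and 0.02 (-0.16 to 0.20, adjusted p = 0.981) for stimulated against control. A change of SPTLC1 beyond 0.34 in superovulated and beyond 0.20 in stimulated animals thus lay outside the interval, which was not adjusted for the number of probe sets.

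SPTLC2 (Bt.29178.1.S1_at), which carries the catalytic lysine, had 7.63, 7.95 and 7.70 in control and 7.86, 7.63 and 7.82 in stimulated cows. In superovulated cows it had 7.38, 8.33 and 8.45, so that replicate 1 was the lowest and replicates 2 and 3 the highest of all 9 animals. The log2 difference from control was 0.01 (SE 0.26, limma adjusted p = 0.997) in stimulated and 0.29 (SE 0.26, adjusted p = 0.890) in superovulated animals. The latter was 0.63 (limma adjusted p = 0.423) without superovulated replicate 1, 0.16 without replicate 2 and 0.097 without replicate 3 of that group. The subunits differed in that animal: SPTLC1 stood at 11.32 there, between its signals in the other superovulated cows. The SPTLC2 signal minus that of SPTLC1 was -3.94 in superovulated replicate 1 and -2.95 and -2.88 in the other superovulated cows, against -3.53 to -3.13 in controls.

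CERS2, a ceramide synthase that attaches very long acyl chains, was among the steadiest genes of the set. Its probe set, Bt.19709.1.S1_at, had signals of 11.92, 11.76 and 11.85 in control, 11.86, 11.77 and 11.93 in stimulated and 11.97, 11.88 and 11.98 in superovulated cows. The 9 animals lay within 0.22 log2 units, and every pair of groups overlapped. The log2 difference from control was 0.01 (95% interval -0.16 to 0.18) in stimulated and 0.10 (-0.07 to 0.26) in superovulated animals, with limma adjusted p values of 0.991 and 0.865.

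UGCG encodes glucosylceramide synthase, which draws ceramide into glycosphingolipids. Its probe set, Bt.25887.1.A1_at, had signals of 9.68, 9.03 and 8.93 in control and 10.02, 9.78 and 10.01 in stimulated cows. Every stimulated cow was above every control, with a gap of 0.10 between the nearest animals. A higher signal without overlap was found for 5.79% of all probe sets in this comparison. The log2 difference was 0.73 (SE 0.31, 95% interval -0.0023 to 1.46), and it did not pass (limma adjusted p = 0.780). Superovulated cows had 10.16, 9.47 and 8.93, which spans the highest and nearly the lowest signal of the 9 animals. Their log2 difference from control was 0.31 (SE 0.31, adjusted p = 0.903), and without superovulated replicate 1 it was -0.0096.

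The UGCG signal minus that of CERT1, which sets the glucosylceramide branch beside the transfer branch within an animal, averaged 3.47 ± 0.44 in control, 3.44 ± 0.09 in stimulated and 3.36 ± 0.73 in superovulated cows (SD, n = 3). CERT1 was chosen on its group differences, so these values are a description.

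SMPD1 encodes acid sphingomyelinase, which releases ceramide from sphingomyelin in lysosomes. Its probe set, Bt.7951.1.S1_at, had signals of 6.31, 5.79 and 6.10 in control, 6.07, 6.46 and 6.43 in stimulated and 6.45, 6.31 and 6.97 in superovulated cows. The lowest superovulated cow equalled the highest control, at 6.31, and the stimulated cows overlapped both groups. The log2 difference was 0.51 (SE 0.21, 95% interval 0.03 to 0.99) for superovulated against control, at an unadjusted p of 0.0402 that did not pass (limma adjusted p = 0.802). An unadjusted p under 0.05 with a higher signal was found for 2.6% of all probe sets in that comparison. In stimulated animals the log2 difference was 0.25 (SE 0.21, adjusted p = 0.884), or 0.11 without control replicate 2. Without superovulated replicate 3 the superovulated difference was 0.31.

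ASAH1 encodes acid ceramidase, the lysosomal enzyme that splits ceramide into sphingosine and a fatty acid. Its probe set, Bt.8766.1.S1_at, had signals of 11.96, 11.99 and 11.98 in control and 11.98, 11.94 and 11.96 in superovulated cows, groups that span 0.03 and 0.04 log2 units. Stimulated cows had 11.95, 11.73 and 11.79, all below all controls, though the gap between the nearest animals was 0.0084. A lower signal without overlap was found for 5.72% of all probe sets in this comparison. The log2 difference was -0.15 (SE 0.07, 95% interval -0.31 to 0.01, limma adjusted p = 0.784), or 0.90-fold. In superovulated animals it was -0.01 (SE 0.07, adjusted p = 0.986).

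The SMPD1 signal minus that of ASAH1, a within-animal contrast of the ceramide-releasing and the ceramide-splitting lysosomal enzyme, averaged -5.91 ± 0.28 in control, -5.50 ± 0.33 in stimulated and -5.38 ± 0.35 in superovulated cows (SD, n = 3). It ran from -6.20 to -5.64 in control, -5.88 to -5.27 in stimulated and -5.63 to -4.99 in superovulated cows. Superovulated cows thus lay above control cows with a gap of 0.013, and stimulated cows overlapped both. Groups without overlap were found for 10.9% of single probe sets in superovulated against control. Of the other such differences, SPHK1 minus SGPL1 was lower in superovulated than in control cows with a gap of 0.0095. SPTLC2 minus SPTLC1 and UGCG minus CERT1 overlapped.

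S1P is made by sphingosine kinases and broken down for good by S1P lyase. SPHK1 (Bt.7037.1.S1_at), sphingosine kinase 1, had a mean signal of 3.79, with 45.2% of probe sets below it, which places it in the dim part of the array. Its signals were 4.27, 3.83 and 3.83 in control, 3.57, 4.06 and 3.37 in stimulated and 3.80, 3.84 and 3.58 in superovulated cows, and all groups overlapped. The log2 difference from control was -0.31 (SE 0.20, limma adjusted p = 0.864) in stimulated and -0.24 (SE 0.20, adjusted p = 0.876) in superovulated animals. Without control replicate 1 these were -0.16 and -0.091, and the stimulated difference ran to -0.51 without stimulated replicate 2.

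SGPL1 (Bt.14347.1.S1_at), the lyase, had signals of 10.56, 10.12 and 10.65 in control, 10.54, 10.04 and 11.18 in stimulated and 10.64, 10.76 and 10.71 in superovulated cows. The lowest and the highest of the 9 animals were both stimulated cows, 1.13 log2 units apart, while the superovulated cows lay within 0.12. The log2 difference from control was 0.14 (SE 0.27, limma adjusted p = 0.951) in stimulated animals, turning to -0.15 without stimulated replicate 3. In superovulated animals it was 0.26 (SE 0.27, adjusted p = 0.905), or 0.097 without control replicate 2.

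**Figure D3:**
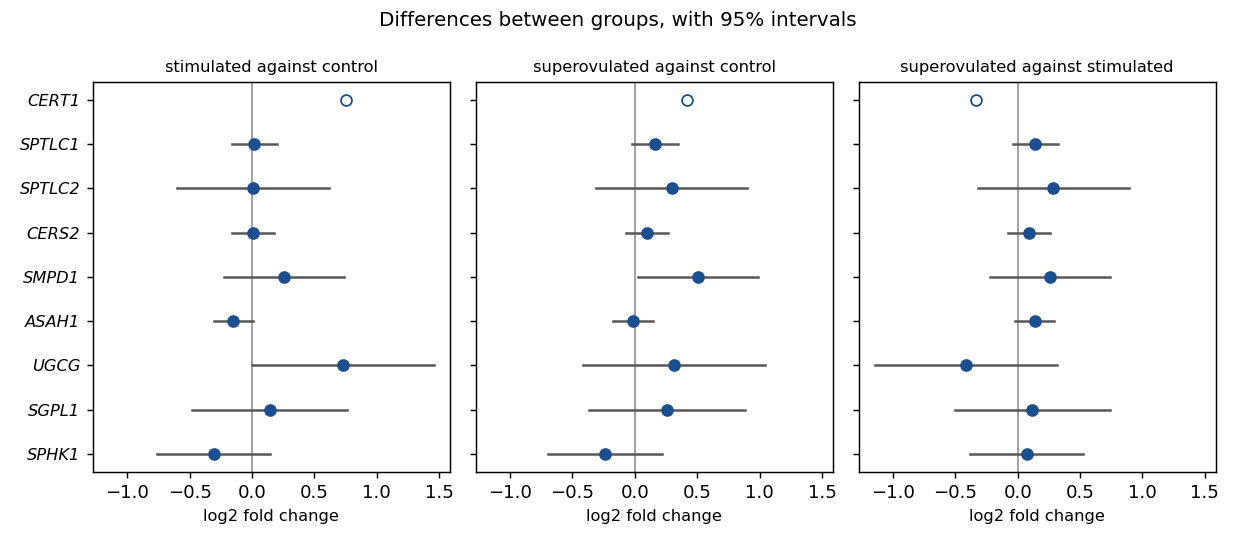
Log2 fold change of each measured gene in the 3 comparisons; filled points carry 95% intervals from the limma fit, not adjusted for the number of probe sets, and the open point is CERT1, given without interval because it was chosen on these values. The intervals of SPTLC1, CERS2 and ASAH1 reach at most 0.34 log2 units from 0, whereas those of SPTLC2, UGCG and SGPL1 reach 0.61 or more in each comparison.

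Between the treated groups, the log2 difference of superovulated minus stimulated animals was 0.14 for SPTLC1, 0.09 for CERS2 and 0.14 for ASAH1, with SEs of 0.08, 0.07 and 0.07. It was 0.26 for SMPD1 (SE 0.21), or 0.061 without superovulated replicate 3 and 0.13 without stimulated replicate 1. It was 0.12 for SGPL1 (SE 0.27) and 0.07 for SPHK1 (SE 0.20), and both turned sign when 1 stimulated cow was left out. For SPTLC2 it was 0.29 (SE 0.26), or 0.62, 0.15 and 0.089 without superovulated replicate 1, 2 and 3. UGCG was the gene below 0, at -0.42 (SE 0.31), or -0.74 without superovulated replicate 1 and -0.12 without superovulated replicate 3. The groups overlapped for each of these 8 genes, and limma adjusted p values ran from 0.580 for ASAH1 to 0.932 for SPHK1.

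Across the comparisons, 0 of the 8 tested genes passed limma's test, and CERT1 was not put to it. For stimulated against control 0.00417% of the 23969 probe sets passed. At an unadjusted p under 0.05 the count was 0 of 8, while 3.65% of probe sets were higher and 2.73% lower at that level. UGCG and ASAH1, 2 of the 8, had groups without overlap, against 11.5% of all probe sets. Of the 8 log2 fold changes 6 were above 0, against 49.2% of genes, with a median of 0.01 beside -0.0029 over all named genes.

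For superovulated against control 0% of probe sets passed. SMPD1 was the 1 gene of 8 with an unadjusted p under 0.05, a level at which 2.6% of probe sets were higher and 3.59% lower. SPTLC1 was the 1 gene of 8 without overlap, beside 10.9% of probe sets in either direction and 5.18% in the higher direction. Of the 8, 6 were above 0, against 53.3% of genes, and the median was 0.21 beside 0.01.

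For superovulated against stimulated 0.00417% of probe sets passed. The count at an unadjusted p under 0.05 was 0 of 8, beside 4.06% of probe sets higher and 5.59% lower, and 0 of 8 were without overlap, beside 13.5%. Of the 8, 7 were above 0, against 53.2% of genes, and the median was 0.13 beside 0.01. A moderated F test for any difference among the groups gave the 8 genes limma adjusted p values from 0.693 for SMPD1 to 0.904 for SGPL1, with 0 of 8 under 0.05 before adjustment. Of all probe sets 0.00417% passed it and 7.68% were under 0.05 before adjustment.

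The genes differed in how much they varied between cows of 1 group. The pooled SD within groups was 0.0658 for ASAH1, 0.0726 for CERS2 and 0.0842 for SPTLC1, against 0.358 for SPTLC2, 0.368 for SGPL1 and 0.433 for UGCG. Among probe sets within 0.5 log2 units in mean signal, 7.65% had a smaller spread than ASAH1, 10.96% than CERS2 and 13.4% than SPTLC1. For SPTLC2, UGCG and SGPL1 these shares were 64.3%, 85.3% and 86.3%. SMPD1, with an SD of 0.281, and SPHK1, with 0.266, lay between, at 45.8% and 71.0%.

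A wider list of 92 other genes of sphingolipid metabolism was read beside these genes, and 52 of them had a named probe set. In limma's test 0 of the 52 passed in any comparison. For stimulated against control, an unadjusted p under 0.05 was found for 3 genes above and 0 below control, where 4.19% and 3.08% of all 9148 genes had one. The count of 3 was 0 without control replicate 2 and 7 with the replicate number as a block. The median log2 fold change of the list was 0.0018 beside -0.0029 over all genes. For superovulated against control the counts were 3 and 0 (all genes 3.14% and 2.13%), or 0 in all without superovulated replicate 3, and the median was 0.06 beside 0.01. For superovulated against stimulated they were 4 and 3 (all genes 4.88% and 4.19%), or 7 in all, which became 11 without superovulated replicate 1 and 4 without replicate 2 of that group. The median was 0.03 beside 0.01. In stimulated against control, 5 of the 52 genes were higher and 4 lower without overlap. The counts were 4 and 1 in superovulated against control and 6 and 3 in superovulated against stimulated. In the same order, 11.5%, 10.9% and 13.5% of all probe sets had groups without overlap in either direction.

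Among 9 measured genes of ceramide synthesis and its control, 3 were above control in stimulated and 4 in superovulated animals. RTN4, a membrane protein of the endoplasmic reticulum known to restrain serine palmitoyltransferase, had the smallest p of the higher genes in stimulated animals, with signals of 13.38, 13.38 and 13.20 against 12.97, 13.03 and 13.19 in control. Its log2 difference was 0.26 (SE 0.09, limma adjusted p = 0.708). DEGS1, the desaturase that completes ceramide, had 12.01, 12.14 and 12.09 in stimulated, 12.14, 12.34 and 12.30 in control and 12.24, 12.45 and 12.36 in superovulated cows. Stimulated cows lay below both other groups, though the nearest stimulated and control cows both read 12.14. Groups without overlap were found for 11.5% of all probe sets against control and 13.5% between the treated groups. The log2 difference of DEGS1 was -0.18 (SE 0.08, limma adjusted p = 0.786) for stimulated against control. For superovulated against stimulated animals it was 0.27 (SE 0.08, limma adjusted p = 0.431), and neither passed the test.

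Of 12 genes of ceramide and glycolipid transfer and its regulators, 6 were above control in stimulated and 9 in superovulated animals. VAPA and VAPB, the membrane proteins of the endoplasmic reticulum that CERT1 docks on, and PI4KB, a kinase that makes its Golgi lipid target, are given for that role and were picked after their values were seen. Their log2 differences from control were -0.01, 0.04 and -0.10 in stimulated and 0.02, -0.23 and 0.0032 in superovulated animals, none past the test. A dimmer probe set of VAPB had 0.27 and 0.12, opposite in sign to the brighter one in superovulated animals. PLEKHA8, which carries glucosylceramide, was lower in stimulated than in superovulated cows, opposite in sign to CERT1. It had 4.53, 4.43 and 4.67 in stimulated and 5.16, 4.77 and 5.16 in superovulated cows, against 4.77, 4.77 and 4.86 in control. The log2 difference between the treated groups was 0.49 (SE 0.12, limma adjusted p = 0.364), and stimulated against control it was -0.26 (SE 0.12, adjusted p = 0.784).

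The list of glycosphingolipid breakdown holds mostly lysosomal enzymes, with PSAP, an activator protein, and SCARB2, a lysosomal membrane protein. Of its 18 named genes 8 were measured, and their medians against control were the furthest from 0 among the lists by role. By its brightest probe set, each of the 8 measured genes was above control in stimulated animals, from 0.05 to 0.52 with a median of 0.28, and 7 of 8 in superovulated animals, with a median of 0.21, where 49.2% and 53.3% of all genes were above 0. Of the 8, 2 were higher at an unadjusted p under 0.05 in each of these comparisons, where 4.19% and 3.14% of all genes were, and 0 passed limma's test. GLB1, a lysosomal beta-galactosidase, had 9.33, 8.84 and 8.82 in control, 9.34, 9.37 and 9.83 in stimulated and 9.39, 9.46 and 9.63 in superovulated cows. Both treated groups lay above control, by 0.52 and 0.50 (SE 0.18 each, limma adjusted p = 0.719 and 0.801), and a dimmer probe set of GLB1 had 0.16 and 0.04. The nearest stimulated and control cows read 9.34 and 9.33. In these comparisons 11.5% and 10.9% of all probe sets had groups without overlap.

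NEU3, a sialidase of the plasma membrane, had a log2 difference of 0.51 (SE 0.20, limma adjusted p = 0.774) in stimulated against control animals and of -0.62 (SE 0.20, adjusted p = 0.450) in superovulated against stimulated animals. Its log2 difference in superovulated against control animals was -0.11. A dimmer probe set of NEU3 had -0.03 in stimulated and -0.08 in superovulated against control animals, and -0.05 between the treated groups. CTSA, which protects lysosomal galactosidase and sialidase, had 9.60, 9.56 and 9.61 in control, 9.89, 9.86 and 9.76 in stimulated and 9.59, 10.015 and 10.03 in superovulated cows. Superovulated replicate 1 lay among the controls, and the log2 difference was 0.29 (SE 0.12, limma adjusted p = 0.802). ASAH1 and SMPD1, also lysosomal, had -0.15 and 0.25 in stimulated animals. Myeloid markers, rich in lysosomes, had mean log2 differences from control of 1.51 and 1.01 in the same animals, and their part in these values was not tested.

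Sphingomyelin and ceramide hydrolases beyond SMPD1 and ASAH1 were few. Of 4 sphingomyelin genes 2 were above control in each treated group, with medians of -0.03 and 0.05, and of 2 ceramidase genes 1 was above control in each, with medians of -0.08 in both.

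In glycosphingolipid synthesis, the branch fed by UGCG, 4 of 8 genes were above control in stimulated and 3 of 8 in superovulated animals. The medians were -0.02 and -0.15. UGT8, B4GALT5, B4GALT6, B4GALNT1, ST8SIA1 and B3GALT4, listed here for their dim signals, had means from 1.96 to 3.90 in stimulated cows. The counts thus rest largely on dim probe sets. ST3GAL2, a sialyltransferase, had no overlap between superovulated and stimulated cows, as had 13.5% of all probe sets. Its signals were 10.26, 9.999 and 10.16 against 10.59, 10.57 and 10.41. The log2 difference was -0.38 (SE 0.12, limma adjusted p = 0.444), and another probe set had -0.48. B3GALT4, a galactosyltransferase, had -0.45 (SE 0.15, adjusted p = 0.457) at dim signals of 3.46 and 3.90. B4GALNT1 and ST8SIA1 were, after PLPP3, the lower genes of smallest p in superovulated against control. They had -0.13 and -0.17 (limma adjusted p = 0.827 and 0.834) at mean signals of 2.01 and 2.63 in superovulated cows, in the dim part of the array.

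Among 9 genes of S1P metabolism, export and reception, 3 were above control in stimulated and 5 in superovulated animals. APOM, the plasma carrier of S1P, had 6.03, 5.72 and 6.86 in control, 5.93, 5.98 and 5.84 in stimulated and 6.70, 6.92 and 6.89 in superovulated cows. Superovulated cows were above stimulated by 0.92 (SE 0.26, limma adjusted p = 0.392) and above control by 0.63 (SE 0.26, adjusted p = 0.802), and a dimmer probe set had 0.42 and 0.27. PLPP3, a phosphatase that removes phosphate from S1P and related lipids, had -0.29 and -0.31 against control (SE 0.14 each, adjusted p = 0.784 and 0.806), with other probe sets from -0.34 to -0.02 and from -0.40 to 0.07. SPHK2, the second sphingosine kinase, and the receptors S1PR1 and S1PR2 were picked after their values were seen. Their log2 differences from control were -0.0041, 0.12 and -0.05 in stimulated and 0.07, 0.24 and -0.0055 in superovulated animals. A dimmer probe set of SPHK2 had -0.12 and -0.11, and one of S1PR1 had 0.18 and 0.19.

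**Figure D4:**
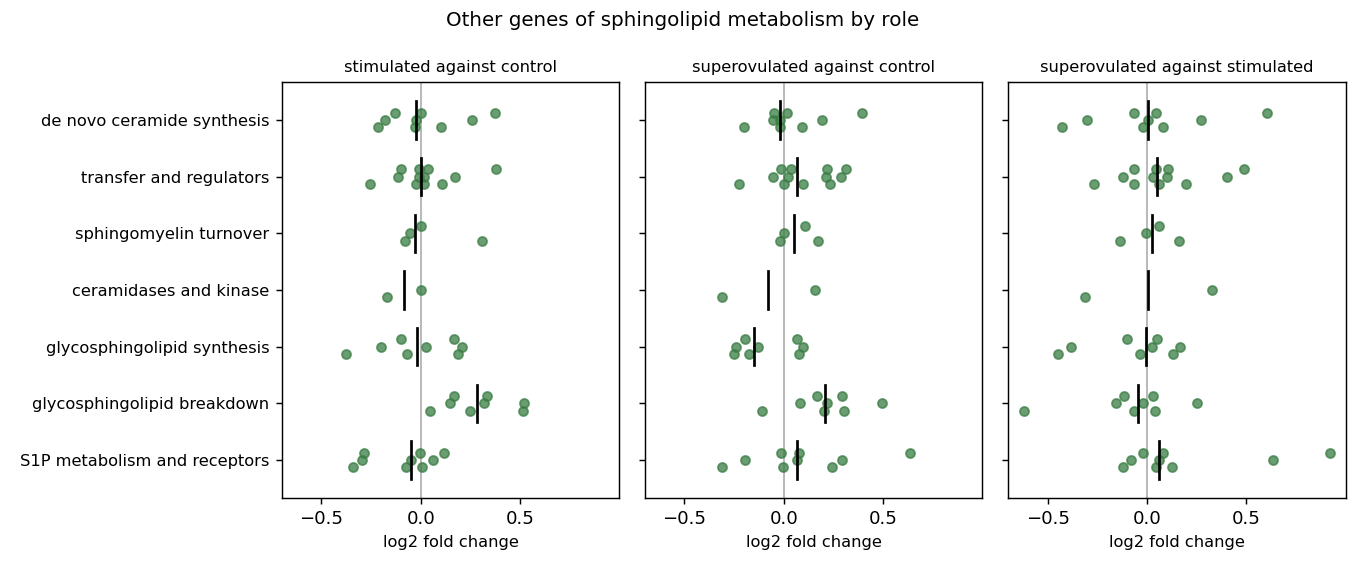
Log2 fold change of the 52 other measured genes of sphingolipid metabolism in the 3 comparisons, 1 point per gene, arranged by role; bars are medians, and points are offset vertically for legibility. Medians lie near 0 in most roles. Those furthest from 0 are of the breakdown genes, at 0.28 in stimulated and 0.21 in superovulated animals against control. Next is glycosphingolipid synthesis in superovulated against control, at -0.15.

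The genes whose signals followed CERT1 most closely over the 9 arrays were CHERP, LOC510377, SCPEP1, SLC5A5 and PPDPF, with Pearson correlations of 0.942, 0.933, 0.922, 0.917 and 0.917. The 9 arrays form 3 groups in which CERT1 differs, so these values mostly describe a shared order of groups and carry no p. CHERP averaged 7.62 ± 0.07 in control cows, 8.03 ± 0.06 in stimulated cows and 7.92 ± 0.11 in superovulated cows (SD, n = 3). SCPEP1, a serine carboxypeptidase, had 11.86 ± 0.07, 12.32 ± 0.13 and 12.08 ± 0.16 in the same order (SD, n = 3). PPDPF had 6.99 ± 0.19, 7.74 ± 0.18 and 7.47 ± 0.31, and LOC510377 had 7.02 ± 0.09, 7.75 ± 0.10 and 7.31 ± 0.06 (SD, n = 3). SLC5A5, the iodide transporter of the thyroid, was dim, with group means of 2.21, 2.38 and 2.32. None of these 5 genes belongs to the sphingolipid lists.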

How the data were processed

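Luteal RNA of 9 cows was hybridised to Affymetrix bovine arrays as biotinylated cRNA, per the labels' protocols. The deposited value table gives digit runs that lost their decimal mark; with the mark restored the values run from 0.85 to 15.19 and were read as log2 signals. How the authors summarised and normalised the probes, and the base of their logarithm, is not given in the sources used here. Runs open to 1.x or 1x.x made up 15.5% of cells. They were settled by the other arrays of a probe set or, where all 9 were open, by the spread between arrays at a posterior probability of at least 0.95. A further 49 probe sets stayed undecided and were left out. Of the members SPTLC1, CERS2, ASAH1 and SGPL1 had open runs on all arrays and were read as bright, with a lowest posterior of 0.999. Array control probe sets, 112 in all, were left out of tests.

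Probe sets were named from GEO's annotation of the array, which can be old: 13292 probe sets carry 1 symbol, 86 several and 10638 none. The brightest probe set stood for a gene. limma 3.58.1 (R 4.3.3) fitted 1 mean per group over all 9 arrays, with 6 residual degrees of freedom, 2-sided tests and Benjamini-Hochberg adjustment. The limma fit was tested on simulated arrays with independent noise and known changes in the stimulated group. The restoring of the decimal marks was not tested on simulated data. No normalisation was added, and array medians lay between 4.19 and 4.26. Precision is limited by 3 arrays per group.

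The members and lists were chosen with earlier results of these data known. Named genes are all members, up to 3 genes of the wider list per comparison and direction by smallest p, and the 5 genes most correlated with CERT1. The cell type lists not described in the results had these mean log2 differences from control in stimulated and superovulated animals: B and plasma cells 0.22 and -0.03, pericytes and smooth muscle -0.30 and 0.18, fibroblasts -0.24 and 0.29, epithelium -0.05 and 0.37. Replicate numbers name separate animals. Deviations from the group mean of animals with the same number correlated at 0.202, 0.376 and 0.153 between stimulated and superovulated cows. With control cows they correlated at -0.03 to 0.34. Control replicate 1 and superovulated replicate 3, of different numbers, correlated at 0.249. Whether the numbers mark a pairing or a shared batch is not stated in the sources used here. The main fits treated all cows as unpaired, so their SEs and p values leave these correlations out. The replicate block was fitted as an alternative for every comparison. Alternatives were quantile normalisation, median centring, a filter on dim probe sets, fits of 2 groups, a trended robust prior, probe sets without open runs, the replicate block, the mean of all probe sets and leaving out each array.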

Additional observations from a re-analysis of the deposited data

How the results depend on the processing

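Under 16 alternatives, the count of tested members and of wider-list genes past the threshold stayed at 0 in every comparison. Not every alternative held all genes. Probe sets without open runs covered 3 of the 8 tested members and 33 of the 52 wider-list genes, and the filter on dim probe sets kept 45 of the 52. The smallest limma adjusted p of any member other than CERT1 was 0.306, for SPTLC2 in superovulated against stimulated animals without superovulated replicate 1. The sign turned in 17 of 417 member fold changes, each of a gene that did not pass. SPTLC2 in stimulated against control was -0.039 after quantile normalisation and -0.0054 after median centring. Median centring also gave -0.0045 for CERS2 in stimulated and 0.0015 for ASAH1 in superovulated against control. Leaving out each array in turn gave, for stimulated against control, -0.055 to 0.062 for SPTLC1, -0.058 to 0.10 for SPTLC2, -0.032 to 0.049 for CERS2 and -0.15 to 0.41 for SGPL1. UGCG ran from -0.0096 to 0.60 in superovulated against control. In superovulated against stimulated, SGPL1 ran from -0.15 to 0.41 and SPHK1 from -0.078 to 0.27. With the replicate number as a block, fold changes are the same by construction, and 0 tested members passed. The smallest limma adjusted p was that of UGCG in superovulated against stimulated (0.518) and in stimulated against control (0.484). In superovulated against control it was that of SMPD1 (0.603). CERT1 in stimulated against control was 0.70 after quantile normalisation. A mean over probe sets leaves the members unchanged, since each has 1.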
